A study of Mus musculus with 100 samples.

Results

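The data described here are the RNA levels of 10 genes in mouse knee joints. The genes are known either to answer glucocorticoid hormone or to belong to the acute-phase and tissue stress response, and they were chosen by name as Fkbp5, Tsc22d3, Zbtb16, Pdk4, Sgk1, Mt1, Mt2, Cdkn1a, Saa3 and Lcn2. Earlier results of these data were known when they were chosen, so their counts beside the share of all genes are a description only. All 10 were found among the 17310 genes of the count table, and none was removed by the filter on low counts. The table holds 100 knee joint libraries of MRL/MpJ, C57BL/6 and STR/ort mice from poly(A) RNA sequencing, made to compare early changes after a joint injury between strains that differ in their risk of post-traumatic osteoarthritis (PTOA). MRL/MpJ is labelled not susceptible to PTOA, and STR/ort highly susceptible. The mice were 10 weeks old, and the anterior cruciate ligament (ACL) of the right knee was ruptured under isoflurane by 1 compressive load of 10 to 12 N on the tibia, followed by buprenorphine for pain. The 0-day libraries came from 4 uninjured joints per strain, taken before injury. Injured joints, and the contralateral joints of treated mice, were taken at 3 later times, 1-day, 1-week and 2-weeks, with 5 libraries per strain and joint, except 4 in the contralateral groups of MRL/MpJ and STR/ort at 1-week. The mice that gave contralateral joints had therefore received the same anaesthetic, analgesic and opposite-leg injury, and whether the 0-day mice received either drug is not given in the sources used here, nor is the hour of collection or the sex. Each library is a whole joint cut at the femur and tibia with traces of soft tissue, so marrow, muscle, bone, cartilage and synovium were sequenced together, and fewer cells of a type cannot be told apart from less RNA per cell.

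Glucocorticoids are adrenal hormones that bind the glucocorticoid receptor, a transcription factor that switches on genes carrying its element and restrains inflammation. Fkbp5 is a chaperone partner of the receptor that limits its hormone binding, Tsc22d3 encodes GILZ, an anti-inflammatory leucine zipper protein, and Zbtb16 encodes the zinc finger repressor PLZF. Pdk4 is a kinase that shuts pyruvate dehydrogenase and spares glucose during fasting, and Sgk1 is a serum and glucocorticoid regulated kinase that acts on ion transport. Mt1 and Mt2 are metallothioneins, small zinc-binding proteins induced by metals, glucocorticoids and inflammation, and Cdkn1a encodes p21, a cell cycle inhibitor that p53 switches on. Saa3 is a serum amyloid A made outside the liver in inflammation, and Lcn2 is an iron-siderophore binding protein of the acute phase that is also stored in the granules of marrow neutrophils.

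The genes lie on 8 chromosomes in build GRCm38 (mm10). Fkbp5 is at chr17:28399094-28517527, minus strand, and Tsc22d3 at chrX:140539528-140600659, minus strand. Zbtb16 is at chr9:48654297-48836222, minus strand, Pdk4 at chr6:5483351-5496309, minus strand, and Sgk1 at chr10:21882184-21999903, plus strand. Mt2 and Mt1 are neighbours on chromosome 8, at chr8:94172664-94173568, plus strand, and chr8:94179082-94180327, plus strand. Cdkn1a is at chr17:29090976-29100727, plus strand, Saa3 at chr7:46711998-46715700, minus strand, and Lcn2 at chr2:32384633-32388252, minus strand. Each value is the count of reads over the whole gene, and Mt1 with Mt2, and Saa3 with its serum amyloid neighbours, are close copies whose reads the counting could have split in a way that is not given.

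Start sites of 9 of the 10 genes had RefSeq promoter windows of build GRCm38.p6, 250 bases before to 50 after each start, 17 windows in all. Zbtb16 had no entry. The windows were searched on both strands for the letters of elements known to bind the factors of these pathways, and a match is only a match of letters. The full glucocorticoid element (AGAACA and TGTTCT with 3 bases between) was found in 1 member window, 1 of the 6 of Sgk1, starting 189 bases before the start, and in 0.00913% of all 32851 windows (3 windows). Its short core ACANNNTGT, which this element contains, stood in 2 windows of Sgk1 and in those of Mt1 and Lcn2, and in 6.85% of all windows. The metal element TGCACNC or TGCGCNC had 4 matches in the Mt2 window, 3 in that of Mt1 and 1 in another window of Sgk1, and occurred in 25.7% of all windows. The p53 paired core (CATG and CATG with 6 bases between) stood in 1 of the 2 Cdkn1a windows (0.712% of all), and the C/EBP element TTNTGCAA in the windows of Saa3 and Mt2 (4.05% of all). The NF-kB element (GGG and TTTCC with 2 bases between) had no match in a member window and occurred in 1.63% of all. The 250 bases before the start are shown for 5 genes, because these carry the matches to the elements that their known inducers use, with the named match in capitals (the full glucocorticoid element in Sgk1, 3 of the 4 metal elements in Mt2, 1 of the 3 in Mt1 with the others past the start, the p53 core in Cdkn1a and the C/EBP element in Saa3).
Sgk1 chr10:21993640-21993889 (plus strand): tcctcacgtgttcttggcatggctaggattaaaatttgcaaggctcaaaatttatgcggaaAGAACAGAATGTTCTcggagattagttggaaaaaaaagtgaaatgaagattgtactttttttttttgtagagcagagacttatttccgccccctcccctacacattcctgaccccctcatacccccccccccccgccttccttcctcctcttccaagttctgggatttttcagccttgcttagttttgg
Mt2 chr8:94172368-94172617 (plus strand): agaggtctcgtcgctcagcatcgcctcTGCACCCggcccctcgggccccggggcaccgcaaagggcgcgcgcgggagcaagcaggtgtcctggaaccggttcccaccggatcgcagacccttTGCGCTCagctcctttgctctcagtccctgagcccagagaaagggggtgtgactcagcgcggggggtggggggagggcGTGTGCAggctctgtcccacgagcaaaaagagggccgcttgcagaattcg
Mt1 chr8:94178839-94179088 (plus strand): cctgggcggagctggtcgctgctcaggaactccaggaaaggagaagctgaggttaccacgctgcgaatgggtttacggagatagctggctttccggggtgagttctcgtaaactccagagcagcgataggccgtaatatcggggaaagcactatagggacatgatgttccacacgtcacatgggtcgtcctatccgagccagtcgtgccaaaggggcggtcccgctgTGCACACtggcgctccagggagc
Cdkn1a chr17:29090729-29090978 (plus strand): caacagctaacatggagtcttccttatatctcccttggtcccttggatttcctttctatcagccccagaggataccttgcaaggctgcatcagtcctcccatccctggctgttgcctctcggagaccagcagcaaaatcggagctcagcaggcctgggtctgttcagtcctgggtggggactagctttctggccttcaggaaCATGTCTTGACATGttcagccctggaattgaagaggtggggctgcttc
Saa3 chr7:46715677-46715926 (minus strand): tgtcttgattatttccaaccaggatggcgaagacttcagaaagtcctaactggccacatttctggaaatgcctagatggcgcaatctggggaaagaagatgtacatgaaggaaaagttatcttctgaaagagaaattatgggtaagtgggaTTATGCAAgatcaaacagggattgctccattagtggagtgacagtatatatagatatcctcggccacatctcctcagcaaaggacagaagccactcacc

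Total counts ranged from 6182016 to 20986027 per library, with a median of 10582592. Levels are given in CPM, the counts of a gene relative to all counts of its library with TMM scaling, and a mean is followed by its standard deviation over the libraries of a group. Differences were tested with edgeR's quasi-likelihood test with Benjamini-Hochberg adjustment over the 17310 genes, which gave every adjusted p below unless another test is named, and are log2 fold changes with their standard error. A gene was called when the adjusted p was below 0.05 and the fold change above 1.5, and "rose" and "fell" are used of called genes only. The 0-day, 1-day and 1-week libraries are labelled as experimental batch 1 and those of 2-weeks as batch 2, so a change of time and a change of batch cannot be told apart at that step, and no test was made across them. A few libraries stood apart before any result. Fos, an immediate early gene, was at 517, 435, 155 and 155 CPM in the 4 STR/ort 0-day libraries and at 265 and 274 CPM in libraries 5 of injured and contralateral STR/ort joints at 1-day, against 7.60 to 70.1 CPM in the other 94. Ucp1, a brown fat gene, was at 24.3 and 17.9 CPM in STR/ort 0-day libraries 3 and 4 and at most 2.66 CPM in those 94. The tissues of a whole knee were present in all 21 groups. Summed over each list, group means were 6289 to 10863 CPM for 8 marrow neutrophil granule markers, 1100.3 to 4261 for 4 erythroid markers, 793 to 3599 for 7 bone markers, 1849 to 6233 for 7 cartilage markers, 1371 to 15078 for 7 synovial fibroblast markers and 21851 to 89682 for 8 fast muscle markers.

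Lcn2 was the most abundant of the 10 genes and Saa3 the least. Per kilobase of exon, the C57BL/6 0-day joints held 909.6 CPM of Lcn2 and 98.8 of Mt2, between 4.42 (Zbtb16) and 39.8 (Pdk4) of the other genes except Saa3, and 0.0688 of Saa3. The spread of group means over the 21 groups also differed between genes. Mt2 varied from 11.4 CPM in MRL/MpJ contralateral joints at 2-weeks to 628 CPM in injured STR/ort joints at 1-day, and Pdk4 from 41.8 to 681 CPM between contralateral C57BL/6 joints at 1-day and at 1-week. Zbtb16 ranged from 9.67 CPM in injured STR/ort joints at 1-day to 81.1 CPM in contralateral STR/ort joints at 2-weeks. Lcn2 had the narrowest range, from 597 CPM in injured C57BL/6 joints at 1-day to 1064 CPM in contralateral MRL/MpJ joints at 1-week. Sgk1, Tsc22d3 and Fkbp5 spanned 2.07, 2.66 and 2.86 times between their lowest and highest group means, Cdkn1a 4.07 and Mt1 8.14. Saa3 was at 0 in 13 of the 100 libraries and reached 13.2 CPM in 1 injured STR/ort joint at 1-day.

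**Figure D1:**
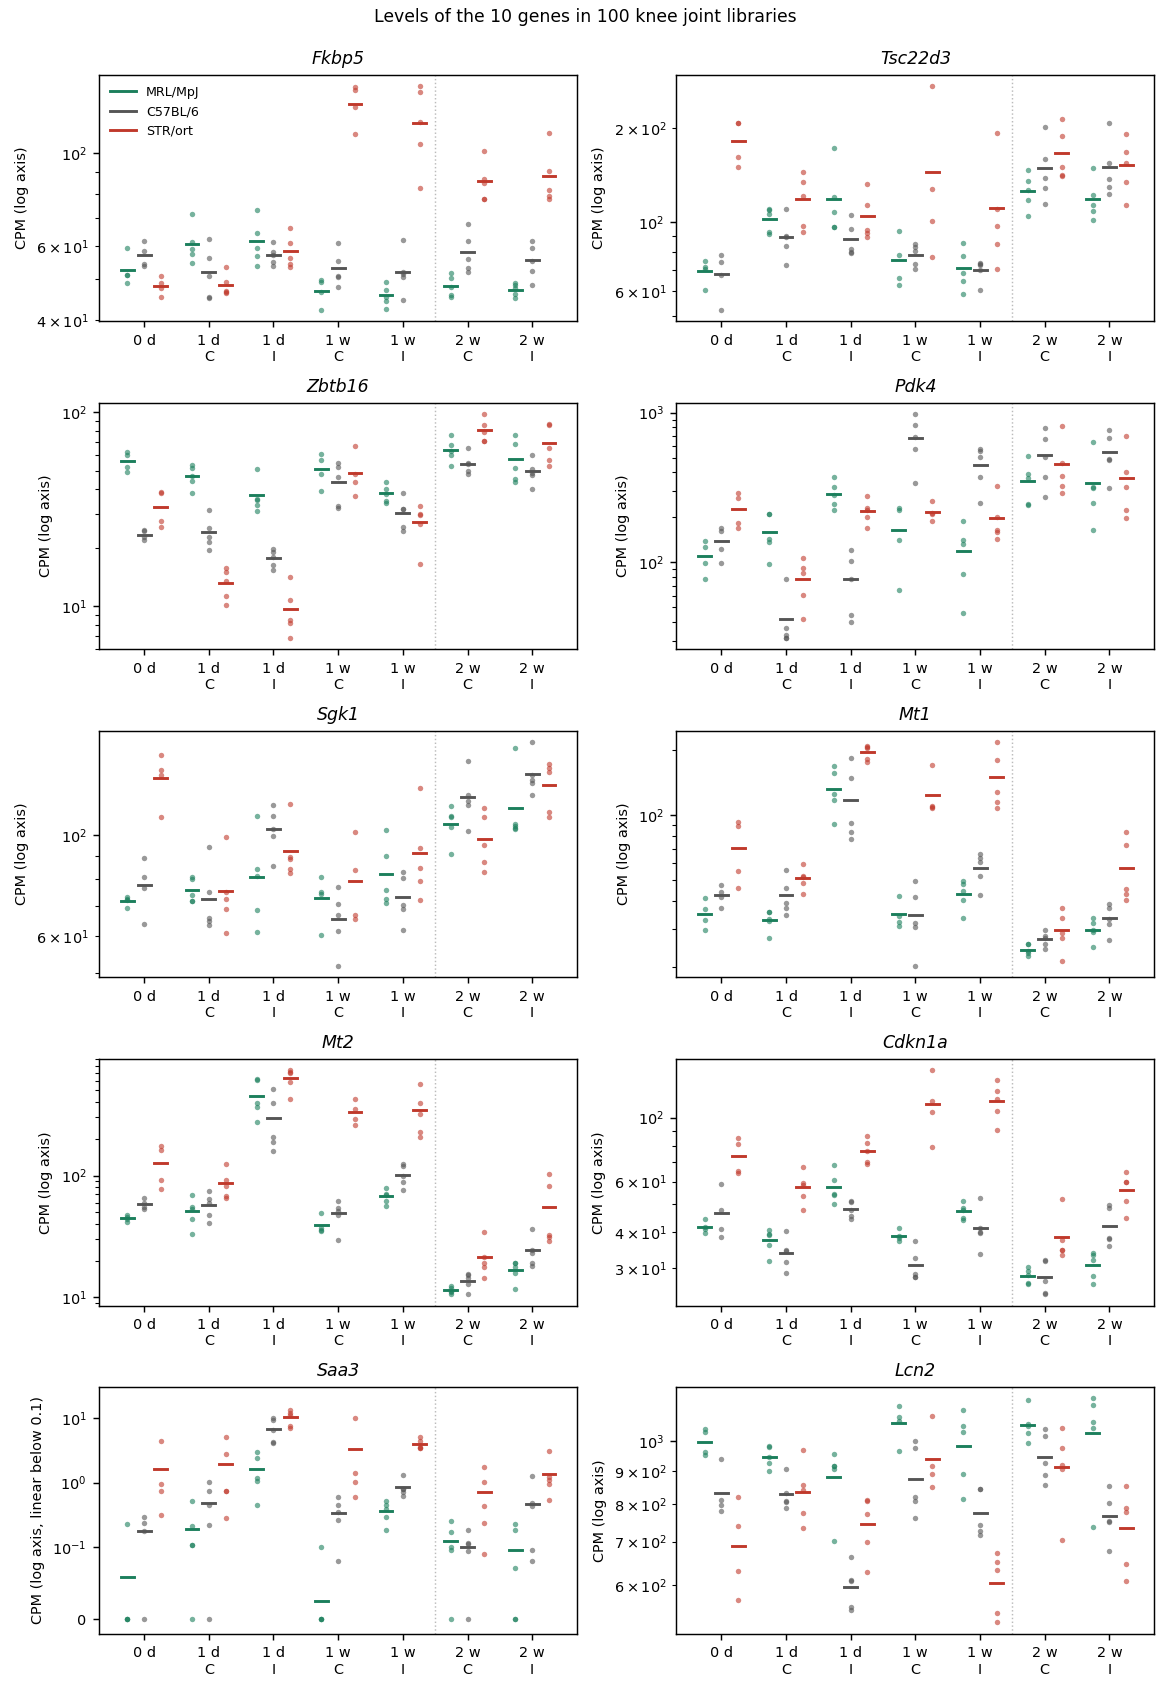
Level of each gene (CPM, log axes, with the Saa3 axis linear below 0.1) in every library, by time (d, day; w, week) and joint (C, contralateral; I, injured) for the 3 strains. Points are libraries, bars are group means and the dotted line marks the change of batch before 2-weeks; Mt2 reached 628 CPM in injured STR/ort joints at 1-day, and Fkbp5 stood at 131 CPM in contralateral STR/ort joints at 1-week.

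Before injury, the hormone-linked genes Tsc22d3, Pdk4 and Sgk1, both metallothioneins, Cdkn1a and Saa3 were higher in STR/ort than in MRL/MpJ or C57BL/6. Tsc22d3 was at 161, 150.3, 207 and 208 CPM in the 4 STR/ort joints, at 70.7, 60.7, 75.1 and 71.6 CPM in those of MRL/MpJ and at 78.5, 67.7, 74.7 and 52.3 CPM in those of C57BL/6. Every STR/ort joint lay above every joint of the other strains, by 1.39 ± 0.12, adjusted p = 7.36e-08 against MRL/MpJ and by 1.37 ± 0.12, adjusted p = 1.02e-07 against C57BL/6. Sgk1 was also highest in STR/ort, with 139, 109.6, 149.5 and 136 CPM in STR/ort, 73.2, 72.3, 72.2 and 69.3 CPM in MRL/MpJ and 89.1, 76.5, 81.0 and 63.9 CPM in C57BL/6, and no overlap (0.90 ± 0.10, adjusted p = 9.40e-07, and 0.74 ± 0.09, adjusted p = 9.58e-06). Mt2 was at 92.0, 76.9, 176 and 162 CPM in STR/ort against 44.4 ± 2.61 in MRL/MpJ and 58.1 ± 5.09 in C57BL/6 (n = 4 each), a difference of 1.51 ± 0.19, adjusted p = 5.99e-06, and of 1.08 ± 0.18, adjusted p = 1.56e-04. STR/ort libraries 3 and 4 were the higher pair for Tsc22d3, Mt2, Mt1, Pdk4 and Cdkn1a. Pdk4 was 1.05 above MRL/MpJ and 0.68 above C57BL/6 on the log2 scale, Mt1 1.01 and 0.69, and Cdkn1a 0.82 and 0.62, all called, with overlap for Pdk4 and Mt1 against C57BL/6. Saa3 was called against both strains, with 3 to 46 counts per STR/ort library, 0 to 2 in MRL/MpJ and 0 to 3 in C57BL/6, counts too low for a fold change.

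Zbtb16 went another way, highest in MRL/MpJ. It was at 62.2, 49.4, 60.3 and 52.4 CPM in MRL/MpJ, 27.6, 25.7, 38.1 and 38.9 in STR/ort and 22.7, 21.95, 24.6 and 24.3 in C57BL/6, and the MRL/MpJ joints lay above both other groups (STR/ort against MRL/MpJ -0.78 ± 0.12, adjusted p = 4.85e-05, and C57BL/6 against MRL/MpJ -1.22 ± 0.12, adjusted p = 3.63e-07). Fkbp5 was not called in any pair, with 48.3 ± 2.28 CPM in STR/ort, 52.8 ± 4.55 in MRL/MpJ and 57.1 ± 3.71 in C57BL/6. Lcn2 was 689.6 ± 112 CPM in STR/ort and 996 ± 47.2 CPM in MRL/MpJ, a difference of -0.52 ± 0.10, adjusted p = 5.54e-04, under the fold threshold, which it passed without STR/ort library 1 (-0.62). In counts, 8 of the 10 genes were called between STR/ort and MRL/MpJ (7 higher, 1 lower; 14.8% of all genes were called), 7 between STR/ort and C57BL/6 (all higher; 13.8%) and 1 between C57BL/6 and MRL/MpJ (15.9%). The median log2 difference between STR/ort and C57BL/6 was 0.68 over the 10 genes and -0.06 over all genes, and between STR/ort and MRL/MpJ 0.95 over the 10 genes and 0.01 over all genes. Fos was high in all the STR/ort libraries that carry these differences. Among them it was higher in libraries 1 and 2 (517 and 435 CPM) than in libraries 3 and 4 (155 CPM each). Libraries 3 and 4 were the higher pair for Tsc22d3, Mt2, Mt1, Pdk4 and Cdkn1a, whereas Saa3 was highest in library 1. The 8 immediate early genes were all called higher in STR/ort against both strains, with a summed level of 1563 CPM (1087 to 2072) against 192 CPM (182 to 199) in MRL/MpJ and 195 CPM (174 to 234) in C57BL/6. Of the fast muscle markers, 8 of 8 were called lower in C57BL/6 than in MRL/MpJ, 7 of 8 higher in STR/ort than in C57BL/6 and 1 lower in STR/ort than in MRL/MpJ, at 85431 CPM (76487 to 93192) summed in MRL/MpJ, 46688 CPM (34993 to 56669) in C57BL/6 and 83824 CPM (80391 to 90685) in STR/ort. All 6 slow muscle markers were also higher against both strains, at 910.5 CPM (609 to 1452) against 218 CPM (134 to 387) and 99.7 CPM (82.5 to 141), as were 2 of 4 brown fat markers against MRL/MpJ and 3 against C57BL/6. Of 7 synovial fibroblast markers, 5 were higher in STR/ort and 7 in C57BL/6 than in MRL/MpJ, with 1 higher and 1 lower in STR/ort than in C57BL/6, at 6919 CPM (4686 to 8624) summed in STR/ort, 2378 CPM (2144 to 2685) in MRL/MpJ and 4596 CPM (3719 to 5713) in C57BL/6. Cartilage markers were higher in C57BL/6 than in MRL/MpJ in 7 of 7 cases and lower in STR/ort than in C57BL/6 in 4, and all 4 measured erythroid markers were lower in STR/ort than in MRL/MpJ. The part of these lists in the results was not tested. Without STR/ort libraries 3 and 4, a check chosen after the data were seen, Tsc22d3 was still called against both strains (1.18 and 1.16), whereas Pdk4 (0.31), Mt1 (0.22), Mt2 (0.51) and Cdkn1a (0.44) were no longer called against C57BL/6, nor Mt1 against MRL/MpJ (0.53). Without libraries 1 and 2, Saa3 was called against neither strain and Zbtb16 not against MRL/MpJ (-0.55), while calls were gained for Zbtb16 against C57BL/6 (0.68) and Lcn2 against MRL/MpJ (-0.73). With RUVg, a correction by 1 or 2 factors of unwanted variation taken from 25 housekeeping genes and the kind of normalisation the study itself used, Pdk4, Sgk1, Mt1 and Mt2 were not called against C57BL/6, Cdkn1a was lost against C57BL/6 with 1 factor and against MRL/MpJ with 2, and Saa3 against C57BL/6 with 2, whereas Tsc22d3 was called against both strains. With 1 factor 3 calls were gained, all between C57BL/6 and MRL/MpJ, for Mt1 (0.64), Mt2 (0.79) and Pdk4 (0.60). Housekeeping scaling ended the Cdkn1a call against C57BL/6, and edgeR's filterByExpr removed Saa3, so that both its calls were not tested there. Single libraries ended calls against C57BL/6 only: Pdk4 without C57BL/6 library 1 or STR/ort library 3 (down to 0.54), Mt1 without STR/ort library 3 or 4 (down to 0.53), Cdkn1a without C57BL/6 library 1 or 3 or STR/ort library 3 or 4 (down to 0.54) and Saa3 without STR/ort library 1 (adjusted p = 0.0556).

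Counts over the companion lists in uninjured joints are read against the 14.8% of all genes called between STR/ort and MRL/MpJ, 13.8% between STR/ort and C57BL/6 and 15.9% between C57BL/6 and MRL/MpJ. Of 20 further glucocorticoid-responsive genes, all measured, 7 were called higher and 3 lower in STR/ort than in MRL/MpJ, and 5 higher and 4 lower than in C57BL/6. Of 12 genes for the glucocorticoid receptor, its chaperones and local hormone activation, none was called against MRL/MpJ and 1 was higher against C57BL/6. Of 17 genes of fasting and fatty acid oxidation, 11 were higher and 1 lower in STR/ort than in C57BL/6, and 1 was higher than in MRL/MpJ, while 7 were lower in C57BL/6 than in MRL/MpJ. Of 15 genes of acute-phase signalling, 7 were higher and 1 lower against MRL/MpJ and 5 higher against C57BL/6, and of 14 other p53 targets, 4 and 3 were higher.

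At 1-day post-injury, Mt1, Mt2 and Saa3 rose in the injured joints of all 3 strains, with larger log2 changes than the other 7 genes in each strain. Mt2 was at 69.7, 44.0, 33.1, 55.2 and 53.3 CPM in contralateral MRL/MpJ joints and at 277, 617, 366, 394 and 605 CPM in injured ones, a rise of 3.16 ± 0.29, adjusted p = 8.02e-09 (8.96-fold). In C57BL/6, Mt2 was at 47.4, 41.1, 59.3, 74.4 and 63.9 CPM in contralateral and 397, 160.5, 209, 516 and 188 CPM in injured joints (2.35 ± 0.28, adjusted p = 2.31e-07), and in STR/ort at 91.0, 125, 68.2, 82.4 and 64.9 and 427, 690.3, 734, 584 and 703 CPM (2.84 ± 0.28, adjusted p = 1.36e-08). In each strain the lowest injured joint lay above the highest contralateral joint. Mt1 rose less, from 32.9 ± 3.56 to 132 ± 31.2 CPM in MRL/MpJ (2.02 ± 0.19, adjusted p = 1.19e-08), from 42.8 ± 8.53 to 117 ± 47.0 CPM in C57BL/6 (1.45 ± 0.18, adjusted p = 7.07e-07) and from 51.1 ± 6.03 to 195 ± 15.2 CPM in STR/ort (1.92 ± 0.18, adjusted p = 7.10e-09; n = 5 each), again without overlap. In STR/ort the 5 injured values of Mt1 were close together, at 177, 204, 209, 181 and 206 CPM.

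Saa3 was at 0, 0.736, 0.451, 0.225 and 1.02 CPM in contralateral C57BL/6 joints and at 10.1, 4.21, 6.57, 9.14 and 4.17 CPM in injured ones (3.84 ± 0.55, adjusted p = 5.39e-06), and at 0.753, 5.09, 0.280, 2.74 and 0.742 and 13.2, 11.1, 11.9, 7.09 and 7.48 CPM in STR/ort (2.44 ± 0.42, adjusted p = 1.86e-04). All injured joints of these strains lay above all contralateral ones. In MRL/MpJ it was lower and the groups overlapped, with 0.107, 0.108, 0.212, 0.528 and 0 CPM against 1.18, 2.39, 2.94, 1.07 and 0.457 CPM and 10 counts in all in the contralateral group (2.9996 ± 0.85, adjusted p = 0.0363). With the replicate number as a block, the MRL/MpJ call was lost (adjusted p = 0.0788), as it was without any 1 of contralateral libraries 1, 2, 3 and 5 or injured libraries 2 and 3 (adjusted p up to 0.117). Lcn2, the other acute-phase gene, did not rise. It was at 789, 831, 807, 906 and 805 CPM in contralateral and 664, 610.4, 549, 555 and 608 CPM in injured C57BL/6 joints, lower without overlap (-0.47 ± 0.08, adjusted p = 1.05e-04) but under the fold threshold, and the difference was -0.09, adjusted p = 0.692 in MRL/MpJ and -0.18, adjusted p = 0.178 in STR/ort. The summed level of 8 marrow neutrophil granule markers was 7066 CPM (6405 to 8129.7) in those injured C57BL/6 joints and 9928 CPM (9024 to 11917) in contralateral ones, with 0 of the 8 called, and its part in the Lcn2 difference was not tested.

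Among the hormone-linked genes, Pdk4 rose in 2 strains and the receptor partner Fkbp5 and Tsc22d3 in none. Pdk4 was at 91.3, 107, 41.9, 84.4 and 60.5 CPM in contralateral STR/ort joints and 279, 224, 201, 169 and 230.2 CPM in injured ones, without overlap (1.498 ± 0.28, adjusted p = 4.22e-04). In C57BL/6 it rose from a low level, 77.0, 32.8, 31.2, 36.6 and 31.5 to 103, 40.0, 77.8, 121 and 44.6 CPM, and the groups overlapped (0.90 ± 0.29, adjusted p = 0.0254). That call was lost without any 1 of contralateral libraries 2 to 5 or injured libraries 1 and 4 (adjusted p up to 0.139). In MRL/MpJ the values were 212, 209, 142, 136 and 98.1 and 283, 318, 246, 224 and 369 CPM, all injured joints higher, with 0.87 ± 0.27, adjusted p = 0.0649, short of the threshold, and called with the replicate block (adjusted p = 0.0184). Tsc22d3 differed by 0.24, -0.02 and -0.20 in MRL/MpJ, C57BL/6 and STR/ort on the log2 scale, and Fkbp5 by 0.04, 0.13 and 0.25, with adjusted p from 0.0725 to 0.960. Sgk1 was higher in injured C57BL/6 joints (0.51 ± 0.13, adjusted p = 0.00563) but under the fold threshold, which it passed without contralateral library 1 (0.60), and Zbtb16 was -0.31, -0.44 and -0.47, with no call. Without both STR/ort libraries 5, which had high Fos, Zbtb16 was called lower in STR/ort (-0.69), and the 4 calls of that strain were made without them as well. Cdkn1a rose in MRL/MpJ, from 40.8, 39.6, 32.0, 39.2 and 36.2 to 50.2, 60.6, 53.9, 54.4 and 68.4 CPM (0.63 ± 0.10, adjusted p = 5.78e-05; 0.55, just under the fold threshold, at the lowest without contralateral library 3 or injured library 5), and was higher without overlap, but by less than 1.5-fold, in C57BL/6 (0.50 ± 0.10, adjusted p = 3.48e-04) and STR/ort (0.40 ± 0.09, adjusted p = 0.00411).

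In all, 4 of the 10 genes were called in each strain at 1-day, every one of them higher, where 1.53% of all genes were called higher in MRL/MpJ, 4.26% in C57BL/6 and 1.61% in STR/ort. The median log2 change was 0.44 over the 10 genes and 0.01 over all genes in MRL/MpJ, 0.51 over the 10 genes and -0.02 over all genes in C57BL/6 and 0.34 over the 10 genes and -0.02 over all genes in STR/ort. Of the 20 further glucocorticoid-responsive genes, 1 rose in MRL/MpJ, 1 in C57BL/6 and 2 in STR/ort, where 1 fell. The gene that rose in all strains was Angptl4, an inhibitor of lipoprotein lipase (log2 fold change 1.15 in MRL/MpJ, 1.97 in C57BL/6, from 17.3 to 66.9 CPM, and 1.603 in STR/ort). In STR/ort, Tgm2, a transglutaminase, rose (0.85, adjusted p = 2.40e-08) and Klf15, a transcription factor of fasting metabolism, fell (-1.10, adjusted p = 0.0294). None of the 12 genes of the receptor and hormone activation was called in any strain, by edgeR's test. Of 15 measured acute-phase protein genes out of 19, 4 rose in MRL/MpJ, 5 in C57BL/6 and 6 in STR/ort, among them the pentraxin Ptx3 (2.10, 2.90 and 2.87) and the protease inhibitor Serpina3n (1.57, 2.16 and 0.92), and Orm1, an acid glycoprotein, fell in C57BL/6 (-0.63). Saa1, a serum amyloid A best known from liver, was called in all strains at 0.794, 0.524 and 0.853 CPM in injured joints. Of 15 signalling genes, 5, 5 and 7 rose, including Il6 (2.36, 2.46 and 3.34), its feedback inhibitor Socs3 (1.67, 1.25 and 1.41) and the oncostatin M receptor Osmr (0.85, 1.01 and 1.00).

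Of 14 other p53 targets, 1 gene, Eda2r, a receptor of the TNF receptor family, was called in each strain, from 12.5 to 38.7 CPM in MRL/MpJ (1.66, adjusted p = 2.32e-05), by 1.94 in C57BL/6 and by 1.27 in STR/ort. Among 13 genes of metal handling, the zinc and iron importer Slc39a14 rose beside the metallothioneins, by 1.54, 1.25 and 1.75, and 1 more gene rose in STR/ort. Among 17 fasting and fatty acid oxidation genes, the muscle ubiquitin ligase Trim63 rose in all strains (1.34, 1.20 and 1.40), beside Pdk4, and Ppargc1a, a coactivator of mitochondrial genes, fell in MRL/MpJ (-1.06) and STR/ort (-1.47). The lipid droplet protein Plin2 rose in STR/ort (0.62). None of 9 measured genes of ion transport linked to Sgk1, out of 11, was called at 1-day. Of the marker lists, 4 of 8 macrophage markers rose in injured C57BL/6 joints and 1 in each other strain, 2, 3 and 1 of 7 synovial fibroblast markers rose in MRL/MpJ, C57BL/6 and STR/ort, and 5 of 8 fast muscle markers fell in STR/ort. Their part in these results was not tested.

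**Figure D2:**
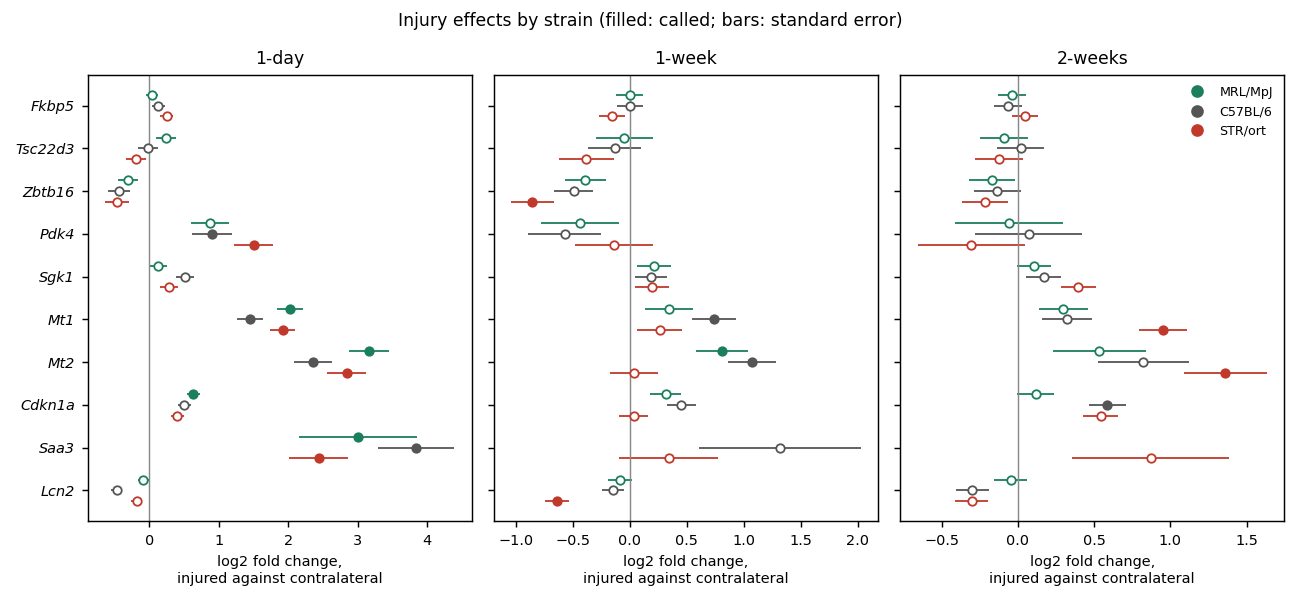
Log2 fold change of injured against contralateral joints (x axis) for each gene and strain, in 1 panel per time. Filled points were called (adjusted p below 0.05 and fold above 1.5), bars are standard errors, and Saa3 is left out where the libraries of 1 group held at most 3 counts each; at 1-day Mt2 lay between 2.35 and 3.16, and at 2-weeks the called points were Mt1 and Mt2 of STR/ort and Cdkn1a of C57BL/6.

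At 1-week, Mt2 was still higher in injured joints of MRL/MpJ and C57BL/6, and Mt1 in those of C57BL/6, while in STR/ort both joints were at a high level. Mt2 was at 35.8, 35.1, 37.2 and 48.9 CPM in contralateral and 62.2, 70.2, 56.5, 78.4 and 69.0 CPM in injured MRL/MpJ joints, without overlap (0.81 ± 0.23, adjusted p = 0.0327), and at 51.2, 29.5, 47.8, 61.6 and 54.5 and 99.6, 75.8, 88.8, 123 and 119 CPM in C57BL/6, also without overlap (1.07 ± 0.21, adjusted p = 4.71e-04). In STR/ort it was at 351, 428, 294 and 261 CPM in contralateral and 394, 569, 206, 323 and 228 CPM in injured joints, which overlapped (0.04 ± 0.21, adjusted p = 0.925). The MRL/MpJ call was lost with 1 RUVg factor and without any 1 of contralateral libraries 1 to 3 or injured libraries 2, 4 and 5 (adjusted p up to 0.116). Synovial fibroblast markers rose with them in injured joints, 7 of 7 in MRL/MpJ, 6 of 7 in C57BL/6 and 3 of 7 in STR/ort, and their part was not tested. Mt1 rose in C57BL/6, from 30.4, 20.1, 31.8, 49.5 and 42.0 to 61.1, 42.9, 52.3, 66.5 and 63.8 CPM (0.74 ± 0.19, adjusted p = 0.00941), with overlap, and the difference in MRL/MpJ did not pass, at 34.9 ± 5.22 and 43.4 ± 6.45 CPM (0.34 ± 0.21, adjusted p = 0.513). Saa3 was at 10.1, 0.604, 1.40 and 1.01 CPM in contralateral and 3.48, 5.09, 4.37, 3.56 and 3.49 CPM in injured STR/ort joints, where contralateral library 1 held the highest value of both groups (0.34 ± 0.43, adjusted p = 0.636). With all libraries it was not called in any strain. Without contralateral STR/ort library 1 the remaining groups did not overlap and the STR/ort difference was called (1.91, adjusted p = 2.87e-05), as was that in C57BL/6 (1.31, adjusted p = 0.0197) and, against libraries of at most 3 counts, that in MRL/MpJ (adjusted p = 0.0102). All strains share 1 estimate of the spread in this fit. Zbtb16 and Lcn2 were called lower in injured STR/ort joints. Zbtb16 was at 47.7, 66.7, 43.6 and 37.0 CPM in contralateral and 29.5, 32.9, 29.9, 26.5 and 16.5 CPM in injured joints (-0.85 ± 0.19, adjusted p = 0.00118), and Lcn2 at 848, 915, 1093 and 889.6 and 526, 633, 544, 651 and 672 CPM (-0.64 ± 0.10, adjusted p = 3.61e-05), both without overlap. In the other strains the Zbtb16 difference had the same sign and did not pass, at -0.49 ± 0.17, adjusted p = 0.0651 in C57BL/6, where it was called without any 1 of contralateral libraries 4 and 5 or injured library 4 (down to -0.60), and -0.39 ± 0.18, adjusted p = 0.312 in MRL/MpJ. In STR/ort, without contralateral library 3 the Lcn2 change was -0.55, under the fold threshold, and with 2 RUVg factors Zbtb16 was not called. The Lcn2 fall moved with marrow neutrophil genes: 5 of 8 granule markers and 3 of 8 mature neutrophil markers fell as well, and the summed granule level was 6289 CPM (4980.2 to 7051) in injured against 9190.5 CPM (8319 to 10941) in contralateral joints. The Zbtb16 fall moved with muscle genes, of which 7 of 8 fast and 4 of 6 slow muscle markers fell, with a summed fast muscle level of 21851 CPM (14902 to 32601) against 38092 CPM (29594 to 57274), and with 4 of 7 bone markers. The part of these cells in both falls was not tested.

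At 1-week, 1 of the 10 was called in MRL/MpJ (3.13% of all genes were called), 2 in C57BL/6 (5.82%) and 2 in STR/ort (9.21%), and the median log2 change was 0.11 over the 10 genes and -0.01 over all genes in MRL/MpJ, 0.09 over the 10 genes and -0.01 over all genes in C57BL/6 and -0.05 over the 10 genes and -0.03 over all genes in STR/ort. The Fkbp5, Tsc22d3, Pdk4 and Sgk1 levels did not pass the test in any strain, with log2 changes between -0.57 (Pdk4 in C57BL/6) and 0.22 (Sgk1 in MRL/MpJ), except that Tsc22d3 in STR/ort was called without injured library 4 (-0.67). Cdkn1a was higher in injured C57BL/6 joints by 0.45 ± 0.13, adjusted p = 0.0177, under the fold threshold, and by 0.04 in STR/ort. Of the 20 glucocorticoid-responsive genes, Angptl4 rose in all strains (0.85, 0.80 and 1.19) and Lpin1, a phosphatidate phosphatase of fat and muscle, fell in all strains (-0.59, -0.63 and -0.84). In C57BL/6 1 more of these genes rose, and in STR/ort 2 more fell. Osmr and Socs3 also rose in all strains, Socs3 by 0.76, 0.76 and 1.00, in totals of 2, 3 and 4 of 15 signalling genes that rose. Slc39a14 rose again by 0.81, 0.95 and 1.46, also in STR/ort, where neither metallothionein was called. Of 15 acute-phase protein genes, 1, 2 and 1 rose, among them Serpina3n in MRL/MpJ (1.11) and C57BL/6 (1.14) and Ptx3 in STR/ort (1.37), where the copper carrier Cp fell (-0.61). In C57BL/6, 3 of 17 fasting genes fell, among them Ppara, a nuclear receptor for fatty acids (-1.05), and in STR/ort 3 of 14 p53 targets rose, among them the kinase Plk2 (0.67). Of the ion transport genes, 2 fell in C57BL/6, among them the sodium pump subunit Atp1b1 (-0.70), and the sodium channel subunit Scnn1a fell in STR/ort (-0.66).

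At 2-weeks, the metallothioneins rose in injured STR/ort joints. Mt1 was at 28.6, 27.2, 21.2, 37.1 and 33.5 CPM in the contralateral and 45.7, 40.4, 43.5, 72.9 and 83.7 CPM in the injured joints, and every injured joint lay above the highest contralateral one (0.95 ± 0.16, adjusted p = 3.44e-05). Mt2 was at 14.4, 19.2, 17.6, 34.1 and 21.4 and 31.0, 29.0, 32.3, 82.2 and 102 CPM, with overlap and the highest values in injured joints 4 and 5 (1.36 ± 0.27, adjusted p = 5.35e-04). The level in C57BL/6 was lower, at 10.7, 15.2, 15.4, 14.5 and 12.7 CPM of Mt2 in contralateral and 23.0, 19.3, 36.5, 24.5 and 18.1 CPM in injured joints (0.82 ± 0.30, adjusted p = 0.0868). The labels name the animal of each joint at 2-weeks, and with the animal as a block this difference was called (0.81, adjusted p = 0.00931). In MRL/MpJ, Mt2 was at 11.4 ± 0.736 CPM in contralateral and 16.7 ± 3.09 CPM in injured joints (n = 5 each), and the difference did not pass (0.53 ± 0.31, adjusted p = 0.823). In each strain 5 of 7 synovial fibroblast markers rose in the injured joints at this time, and their part was not tested. Cdkn1a rose in C57BL/6, from 24.7, 27.2, 24.4, 32.1 and 31.8 to 48.5, 35.8, 38.2, 49.6 and 38.0 CPM without overlap (0.59 ± 0.12, adjusted p = 0.00127), a change so near 1.5-fold that the block left it just under the fold threshold (0.582 with an adjusted p of 4.67e-04), as did DESeq2, its size factors and leaving out any 1 of contralateral libraries 1, 2 and 3 or injured libraries 1 and 4 (down to 0.52). It was also higher in injured STR/ort joints by less than 1.5-fold (0.54 ± 0.12, adjusted p = 0.00112), a difference that was called without contralateral library 4 or injured library 2 (up to 0.68), and Sgk1 was higher by 0.40 ± 0.11, adjusted p = 0.0166. Saa3 was at 0.235, 1.03, 0.436, 1.76 and 0.0902 CPM in contralateral and 0.536, 0.965, 1.20, 1.08 and 3.09 CPM in injured STR/ort joints and was not called (0.87 ± 0.51, adjusted p = 0.300), and its libraries held at most 3 counts in both MRL/MpJ groups and in the contralateral C57BL/6 group. Fkbp5, Tsc22d3, Zbtb16, Pdk4 and Lcn2 were not called in any strain. Of the 10 genes, 0 were called in MRL/MpJ by edgeR's test, with 0 at an unadjusted p below 0.05 (1.16% of all genes were called), 1 in C57BL/6 (2.95%) and 2 in STR/ort (4.66%). Angptl4 rose in C57BL/6 (0.59) and STR/ort (1.53), and Slc39a14 likewise (0.60 and 1.40). In STR/ort, 4 of 15 signalling genes rose, among them Osmr (0.79), 2 of 15 acute-phase protein genes, among them Ptx3 (1.28), and Trim63 fell (-0.63). Serpina3n rose in C57BL/6 (1.18).

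Whether the injury effect itself differed between strains was tested as an interaction. Of 30 tests per time (10 genes and 3 pairs of strains), edgeR's test called 0 at 1-day, 0 at 1-week and 0 at 2-weeks, with 6, 5 and 4 at an unadjusted p below 0.05, while DESeq2 called 0, 1 and 0. The share of all genes at an unadjusted p below 0.05 was not computed, here or for the other such counts in this report. Among all genes, in the order STR/ort against MRL/MpJ, STR/ort against C57BL/6 and C57BL/6 against MRL/MpJ, 0.162%, 2.66% and 0.318% were called at 1-day, 0.884%, 0.491% and 0.00% at 1-week and 0.451%, 0.0462% and 0.00% at 2-weeks. At 1-week Mt2 had the largest difference for STR/ort against C57BL/6, where its injury effect was -1.04 ± 0.29, adjusted p = 0.105, and against MRL/MpJ it was -0.77 ± 0.31, adjusted p = 0.257. For Lcn2 the difference was -0.55 ± 0.15, adjusted p = 0.0596, against MRL/MpJ. The first was called without STR/ort injured library 2 (-1.29), and that of Lcn2 without MRL/MpJ injured library 3 or STR/ort injured library 5 (up to -0.61). With the replicate block both Mt2 differences were called, at -0.998 (adjusted p = 0.00123) and -0.71 (adjusted p = 0.0203), where the deviations of same-numbered joints correlated above 0.1 in all 4 pairs in STR/ort only. Joints at 1-week share only a number, so whether this block pairs joints of 1 animal is not known. At 2-weeks the injury effect of Mt1 was greater in STR/ort than in MRL/MpJ by 0.65 ± 0.22, adjusted p = 0.238, and was called with the animal as a block (0.64, adjusted p = 0.0213). At 1-day the effects on Mt2 spanned 2.35 to 3.16 among strains, and their differences did not pass, with -0.81 ± 0.38, adjusted p = 0.407 for C57BL/6 against MRL/MpJ.

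The contralateral joints at 1-day were set against uninjured 0-day joints of the same strain. In STR/ort, 4 hormone-linked genes fell. Zbtb16 was at 27.6, 25.7, 38.1 and 38.9 CPM at 0-day and 14.9, 13.5, 10.1, 15.7 and 11.3 CPM at 1-day (-1.31 ± 0.18, adjusted p = 1.93e-07), and Pdk4 at 169, 182, 292 and 267 and 91.3, 107, 41.9, 84.4 and 60.5 CPM (-1.56 ± 0.33, adjusted p = 1.57e-04). Sgk1 fell from 139, 109.6, 149.5 and 136 to 75.0, 72.6, 61.0, 98.9 and 68.7 CPM (-0.83 ± 0.14, adjusted p = 7.94e-06), and Tsc22d3 from 182 ± 30.1 (n = 4) to 118 ± 22.5 CPM (n = 5; -0.62 ± 0.20, adjusted p = 0.0151). None of these groups overlapped, and the share of all genes without overlap was not computed. In C57BL/6, Pdk4 fell from 99.2, 124, 162 and 169.6 to 77.0, 32.8, 31.2, 36.6 and 31.5 CPM (-1.75 ± 0.33, adjusted p = 0.00628), and in MRL/MpJ no gene was called by edgeR's test, with 1 of 10 at an unadjusted p below 0.05, where Tsc22d3 was at 69.5 ± 6.18 and 102 ± 9.20 CPM. In counts, 4 of the 10 genes were called in STR/ort, where 9.92% of all genes were, 1 in C57BL/6 (0.0693%) and 0 in MRL/MpJ (0.0924%). In STR/ort all 8 immediate early genes and all 8 fast muscle markers fell too, the latter from 83824 CPM (80391 to 90685) to 41456 CPM (32262 to 56106) summed, as did 11 of 17 fasting genes, 7 of 20 glucocorticoid-responsive genes and 3 of 4 brown fat markers. In the same joints 4 of 8 macrophage markers rose, and 3 of 7 synovial fibroblast markers, from 6919 CPM (4686 to 8624) to 11384 CPM (9539.6 to 13588) summed without overlap. The part of these lists was not tested. Without STR/ort 0-day libraries 3 and 4, Zbtb16 (-1.01), Pdk4 (-1.18) and Sgk1 (-0.71) were called and Tsc22d3 (-0.39) was not. Without libraries 1 and 2, these 4 genes were called, together with Mt1 (-0.81) and Mt2 (-0.95). With 1 or 2 RUVg factors none of the 4 was called. Tsc22d3 was also lost without any 1 of 0-day libraries 3 and 4 or 1-day libraries 3 and 5 (adjusted p up to 0.0723), and the C57BL/6 fall of Pdk4 without 0-day library 4 (adjusted p = 0.0555).

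Between 1-day and 1-week, 6 of the 10 genes rose in the contralateral joints of STR/ort, which had not been injured. Fkbp5 was at 53.6, 46.7, 46.3, 49.3 and 46.9 CPM at 1-day and 111, 144, 128 and 141 CPM at 1-week (1.42 ± 0.10, adjusted p = 1.67e-16; 2.67-fold), and at 1-week it was above the ranges of 42.3 to 49.8 CPM in MRL/MpJ and 47.9 to 61.1 CPM in C57BL/6. Zbtb16 rose from 14.9, 13.5, 10.1, 15.7 and 11.3 to 47.7, 66.7, 43.6 and 37.0 CPM (1.88 ± 0.18, adjusted p = 1.03e-11), and Mt2 from 91.0, 125, 68.2, 82.4 and 64.9 to 351, 428, 294 and 261 CPM (1.93 ± 0.26, adjusted p = 3.31e-07). Pdk4 (1.49 ± 0.32, adjusted p = 0.00201), Mt1 (1.27 ± 0.20, adjusted p = 1.39e-05) and Cdkn1a (0.94 ± 0.12, adjusted p = 1.00e-07) rose as well, and in all 6 genes the lowest joint at 1-week lay above the highest at 1-day. The share of all genes that separated in this way was not computed. Tsc22d3 was not called, at 144, 121, 97.2, 134 and 93.0 and 77.4, 127, 101 and 272 CPM, where 1 joint of the later group was far above the others, and Sgk1 (0.06) and Lcn2 (0.15) differed little. In C57BL/6, Pdk4 rose from 77.0, 32.8, 31.2, 36.6 and 31.5 to 827, 982, 687, 571 and 339 CPM (4.01 ± 0.34, adjusted p = 3.70e-13; 16.2-fold), without overlap, and Zbtb16 from 31.3, 25.4, 22.7, 19.4 and 21.3 to 46.2, 52.1, 55.0, 32.9 and 32.1 CPM (0.85 ± 0.16, adjusted p = 1.56e-04). Pdk4 in both strains, and Zbtb16 in STR/ort, had been called lower at 1-day than at 0-day, so these rises started from a reduced level. No test of 1-week against 0-day was made. Between 1-day and 1-week no gene was called in MRL/MpJ by edgeR's test, with 2 of 10 at an unadjusted p below 0.05. With RUVg the C57BL/6 rise of Zbtb16 was not called, whereas those of the 6 STR/ort genes were. Called genes made up 6 of 10 in STR/ort, all higher, against 1.08% of all genes, 2 of 10 in C57BL/6 (1.35% of all genes higher) and 0 in MRL/MpJ (0.0751% called). The median change in STR/ort was 1.10 over the 10 genes and -0.01 over all genes.

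In the contralateral C57BL/6 joints, 8 of 17 fasting genes rose beside Pdk4 and all 6 slow muscle markers rose, from 134 CPM (47.5 to 269) to 494 CPM (292 to 828) summed, while 7 of 7 bone, 7 of 7 cartilage, 5 of 7 synovial fibroblast and 6 of 7 white fat markers fell, the last from 872 CPM (628 to 1161) to 609 CPM (516 to 646) summed. In STR/ort, 3 of 20 glucocorticoid-responsive genes, 2 of 13 metal genes and 2 of 17 fasting genes rose, none of the slow or fast muscle, bone or synovial fibroblast markers was called, and 3 of 8 immediate early genes fell. The part of these tissues in the C57BL/6 rise of Pdk4 was not tested. A difference of the change between strains was tested as an interaction, added after the data were seen. The contralateral rise in STR/ort exceeded that in MRL/MpJ for Fkbp5 (1.78 ± 0.15, adjusted p = 1.01e-13), Mt2 (2.30 ± 0.38, adjusted p = 8.20e-05), Zbtb16 (1.74), Mt1 (1.18) and Cdkn1a (0.87), and exceeded that in C57BL/6 for the same genes, by 1.42, 2.19, 1.03, 1.59 and 1.09, all called. For Pdk4 the C57BL/6 rise exceeded that of MRL/MpJ by 3.96 ± 0.47, adjusted p = 9.40e-08, and the change in STR/ort was -2.53, relative to C57BL/6. Called interactions were 5 of 10 for STR/ort against MRL/MpJ (1.05% of all genes), 6 against C57BL/6 (7.69%) and 1 for C57BL/6 against MRL/MpJ (2.03%), and the first comparisons share the STR/ort joints. Of these, the Mt1 difference from MRL/MpJ lost its call without MRL/MpJ 1-week library 3 or STR/ort 1-week library 2 (adjusted p up to 0.0927).

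In the injured joints, Mt2 came down from 1-day to 1-week, by more in MRL/MpJ than in either other strain. Mt2 fell from 277, 617, 366, 394 and 605 to 62.2, 70.2, 56.5, 78.4 and 69.0 CPM in MRL/MpJ (-2.72 ± 0.26, adjusted p = 1.47e-12) and from 397, 160.5, 209, 516 and 188 to 99.6, 75.8, 88.8, 123 and 119 CPM in C57BL/6 (-1.53 ± 0.25, adjusted p = 4.72e-06), both without overlap, and from 427, 690.3, 734, 584 and 703 to 394, 569, 206, 323 and 228 CPM in STR/ort, with overlap (-0.88 ± 0.24, adjusted p = 0.00271). The fall in MRL/MpJ exceeded that in STR/ort by 1.85 ± 0.34, adjusted p = 8.58e-05, and that in C57BL/6 by 1.19 ± 0.35, adjusted p = 0.0235, while the difference between STR/ort and C57BL/6 did not pass (0.65 ± 0.34, adjusted p = 0.140). Mt1 fell in MRL/MpJ (-1.58) and C57BL/6 (-1.03), and in STR/ort the difference was -0.39, adjusted p = 0.0969. Saa3 fell in C57BL/6, from 6.84 ± 2.75 to 0.842 ± 0.260 CPM (-2.99 ± 0.51, adjusted p = 1.39e-05), and in STR/ort, from 10.2 ± 2.75 to 4.00 ± 0.717 CPM (-1.36 ± 0.40, adjusted p = 0.00537; n = 5 each). Fkbp5 rose in the injured STR/ort joints as it did in the contralateral ones, from 66.4, 53.7, 56.4, 54.5 and 61.2 to 105, 145, 140.0, 119 and 82.5 CPM (1.01 ± 0.10, adjusted p = 2.29e-13), and Zbtb16 from 9.67 ± 2.84 to 27.1 ± 6.31 CPM (1.48 ± 0.18, adjusted p = 9.39e-10). Pdk4 rose in C57BL/6, from 103, 40.0, 77.8, 121 and 44.6 to 508, 569, 372, 552 and 248 CPM (2.54 ± 0.32, adjusted p = 1.44e-08), and fell in MRL/MpJ, from 283, 318, 246, 224 and 369 to 83.7, 134, 189, 141 and 45.7 CPM (-1.25 ± 0.31, adjusted p = 0.00466), where Tsc22d3 fell too (-0.71 ± 0.20, adjusted p = 0.0141), a call lost without 1-day library 5 or 1-week library 5 (down to -0.55). In counts, 4 of 10 genes were called in MRL/MpJ (all lower; 3.11% of all genes called), 5 in C57BL/6 (2 higher, 3 lower; 4.47%) and 4 in STR/ort (2 higher, 2 lower; 13.9%). Cdkn1a was not called in STR/ort but lay near the fold threshold. Leaving out any 1 of 23 libraries of the 70 brought a call, higher at 1-week (0.59 to 0.64). Of 30 interactions 14 were called, 6 for STR/ort against MRL/MpJ (7.49% of all genes), 5 for STR/ort against C57BL/6 (18.5%) and 3 for C57BL/6 against MRL/MpJ (3.84%). The Mt2 interaction of C57BL/6 was lost without MRL/MpJ 1-day library 2 or C57BL/6 1-day library 5 or 1-week library 4 (adjusted p up to 0.0577). Marker lists moved over the same interval. In injured C57BL/6 joints 6 of 8 macrophage, 6 of 7 white fat and 4 of 7 bone markers fell and 2 of 8 mature neutrophil markers rose, in STR/ort 4 of 6 slow muscle, 4 of 7 bone and 3 of 8 immediate early genes fell and 5 of 7 synovial fibroblast markers rose, and in MRL/MpJ 4 of 7 synovial fibroblast markers rose and 1 fell. Their part in these changes was not tested.

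**Figure D3:**
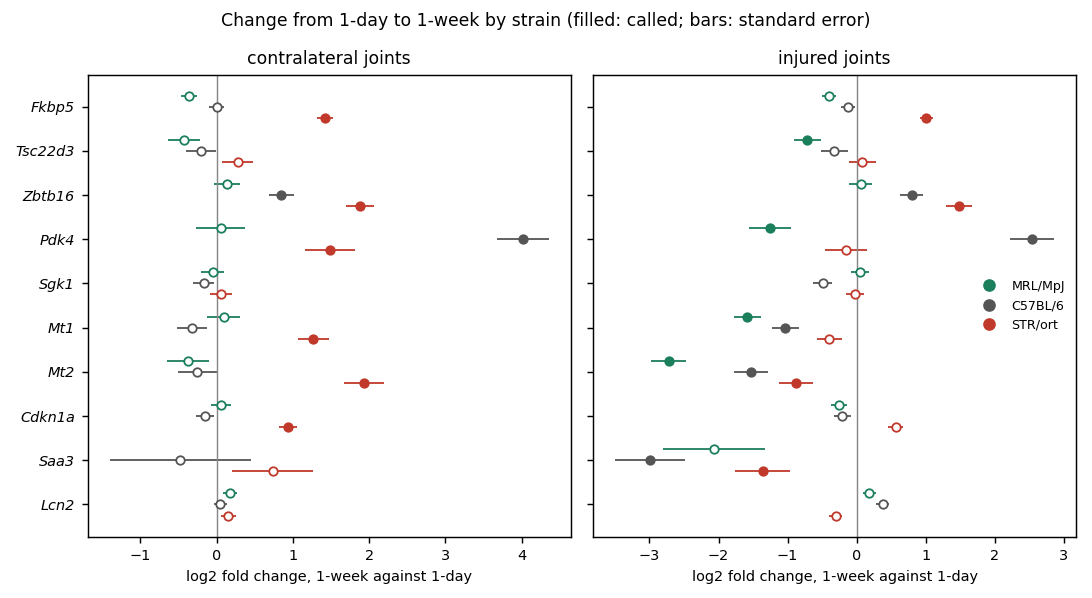
Log2 fold change from 1-day to 1-week (x axis) of each gene in contralateral (left) and injured joints (right) of the 3 strains, with called changes filled and standard errors as bars. Saa3 is left out where the libraries of 1 group held at most 3 counts each; in contralateral joints Fkbp5 lies at 1.42 in STR/ort and near 0 in C57BL/6, and Pdk4 at 4.01 in C57BL/6.

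At 1-week the STR/ort joints stood above both other strains in the same genes on both sides. In contralateral joints, Fkbp5 exceeded MRL/MpJ by 1.503 ± 0.13, adjusted p = 1.28e-10, Mt2 by 3.10 ± 0.25, adjusted p = 3.31e-11, and Cdkn1a by 1.53 ± 0.14, adjusted p = 6.56e-10, where Cdkn1a was at 114, 105, 79.2 and 146 CPM in STR/ort and 38.1, 41.5, 37.5 and 38.9 CPM in MRL/MpJ. Against C57BL/6 the differences were 1.32, 2.78 and 1.86, all called and without overlap. In injured joints they were 1.35, 2.33 and 1.25 against MRL/MpJ and 1.16, 1.74 and 1.44 against C57BL/6, again called. Mt1 and Tsc22d3 were called higher in all 4 comparisons, Tsc22d3 with overlapping libraries (from 0.63 to 0.96). The Tsc22d3 calls rested on STR/ort libraries 4, without which the differences were 0.45 and 0.39 in contralateral and 0.33 and 0.35 in injured joints, none called, and the injured difference from MRL/MpJ was also lost without MRL/MpJ library 2 or 5. With 2 RUVg factors Tsc22d3 was called in none of the 4. Pdk4 had the reverse order for C57BL/6, where the level was highest (681 ± 245 CPM in contralateral joints, n = 5, against 218 ± 29.2 in STR/ort and 165 ± 77.9 in MRL/MpJ, n = 4 each), and the difference of STR/ort from C57BL/6 was -1.63 ± 0.35, adjusted p = 3.93e-04. With RUVg this call was lost, and in injured joints, where the difference was -1.19 ± 0.32, adjusted p = 0.00276, the sign turned to 0.18 with 1 factor and 0.21 with 2 for Pdk4. In the contralateral joints 10 of 17 fasting genes were lower in STR/ort than in C57BL/6 as well. Lcn2 was lower in injured STR/ort than in injured MRL/MpJ joints (-0.71 ± 0.10, adjusted p = 4.47e-07). The 10 genes held 6 calls for STR/ort against MRL/MpJ in contralateral joints (24.4% of all genes) and 7 against C57BL/6 (22.2%), and 7 and 7 in injured joints (29.5% and 25.1%), against 1 and 2 for C57BL/6 against MRL/MpJ (8.53% and 9.47%). Of the 20 further glucocorticoid-responsive genes, 9 were higher and 3 lower in contralateral STR/ort than in C57BL/6 joints. Synovial fibroblast markers moved with these differences, at 15078 CPM (9071 to 23501) summed in contralateral STR/ort joints, 2376 CPM (2117 to 2741) in C57BL/6 and 2516 CPM (2384 to 2653) in MRL/MpJ. In the same order the sums were 6233 CPM (5257 to 6986), 2216 CPM (1300.3 to 3478) and 2144 CPM (1647 to 2766) for cartilage, 3599 CPM (2801 to 4069), 1535 CPM (1357 to 1939) and 1477 CPM (1360.1 to 1785) for bone and 3050.3 CPM (2772 to 3392), 2268 CPM (2042 to 2487) and 2409 CPM (2295 to 2551) for macrophage markers, all higher in STR/ort without overlap. The fast muscle sum was lower, at 38092 CPM (29594 to 57274) against 62969 CPM (44221 to 77243) and 77273 CPM (66048 to 96578), with overlap with C57BL/6. Their part was not tested. With 1 or 2 RUVg factors Fkbp5, Mt2 and Cdkn1a kept their calls in both joints against both strains, and Mt1 lost 1, against C57BL/6 in injured joints. Over the 3 strain pairs, RUVg kept 10 of 16 calls in injured joints with 1 factor and 11 with 2, and gained 5 and 6. In contralateral joints it kept 12 and 9 of 14 calls and gained 6 and 5.

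At 1-day Zbtb16 differed between all 3 strains and was lowest in STR/ort. Its contralateral levels were 14.9, 13.5, 10.1, 15.7 and 11.3 CPM in STR/ort, 31.3, 25.4, 22.7, 19.4 and 21.3 in C57BL/6 and 38.3, 53.5, 51.7, 44.1 and 46.7 in MRL/MpJ, 3 ranges that did not overlap (STR/ort against MRL/MpJ -1.79 ± 0.16, adjusted p = 1.02e-10; STR/ort against C57BL/6 -0.85 ± 0.16, adjusted p = 1.31e-04; C57BL/6 against MRL/MpJ -0.94 ± 0.15, adjusted p = 9.73e-06). The order was the same in injured joints, with 9.67 ± 2.84, 17.7 ± 1.83 and 37.3 ± 7.88 CPM (n = 5 each). With RUVg, Zbtb16 was not called between STR/ort and C57BL/6 in either joint, nor, with 1 factor, between C57BL/6 and MRL/MpJ in contralateral joints. Summed fast muscle markers had the same order of means in injured joints, 25659 CPM (17555 to 44629), 40990.0 CPM (34723 to 53895) and 56431 CPM (45876 to 82145), and their part was not tested. Pdk4 was lowest in C57BL/6, at 77.2 ± 35.4 CPM in injured joints against 288 ± 57.8 in MRL/MpJ (-1.88 ± 0.28, adjusted p = 2.90e-06) and 221 ± 40.3 in STR/ort. Saa3 in injured joints was higher in STR/ort (2.66 ± 0.44, adjusted p = 9.29e-06) and in C57BL/6 (2.10 ± 0.46, adjusted p = 4.26e-04) than in MRL/MpJ, and Mt2 was higher in STR/ort than in C57BL/6 (1.09 ± 0.26, adjusted p = 0.00204). In injured joints 2, 5 and 3 of the 10 genes were called for STR/ort against MRL/MpJ, STR/ort against C57BL/6 and C57BL/6 against MRL/MpJ, where 20.3%, 12.4% and 16.3% of all genes were called. In contralateral joints the counts were 6, 4 and 2, against 22.6%, 10.5% and 14.8%. At 2-weeks Fkbp5 was higher in STR/ort, at 77.7, 77.6, 87.0, 101 and 84.9 CPM in contralateral joints against 45.8, 45.3, 51.8, 50.5 and 48.1 in MRL/MpJ (0.82 ± 0.09, adjusted p = 2.16e-08) and 61.7, 52.2, 53.3, 67.6 and 55.9 in C57BL/6 (0.56 ± 0.09, adjusted p = 1.89e-05, under the fold threshold), with no overlap, and in injured joints it was called against both strains (0.91 and 0.67, the second 0.57 and under the fold threshold without STR/ort library 4). The contralateral Fkbp5 difference from C57BL/6 was called without C57BL/6 library 4 (0.62) or STR/ort library 1 or 2 (0.59). That of Zbtb16, not called with all libraries, was called higher in STR/ort without any 1 of 6 libraries (0.59 to 0.66). Mt1, Mt2 and Saa3 were called higher in injured STR/ort joints against both strains at 2-weeks, Mt2 by 1.73 and 1.19, and Cdkn1a against MRL/MpJ (0.87). The Saa3 calls were lost with 2 RUVg factors. The counts were 5, 4 and 0 of 10 in injured joints, against 18.9%, 10.4% and 11.5% of all genes, and 3, 1 and 0 in contralateral joints, against 13.8%, 9.78% and 9.83%. Of the 4 contralateral calls, Fkbp5 alone was made without STR/ort library 4, and with 2 RUVg factors Mt2 and Saa3 were not called against MRL/MpJ, nor Saa3 against C57BL/6, in these joints. For C57BL/6 against MRL/MpJ, 6 genes in injured and 1 in contralateral joints had an unadjusted p below 0.05.

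The metallothioneins did not move in proportion. In 0-day joints, Mt2 had 1.28 (1.15 to 1.40) counts for each count of Mt1 in MRL/MpJ, 1.37 (1.16 to 1.55) in C57BL/6 and 1.76 (1.66 to 1.98) in STR/ort, as means and ranges over libraries. In injured joints at 1-day the ratio was 3.36 (3.02 to 3.94), 2.41 (2.05 to 2.80) and 3.19 (2.42 to 3.52), and in each strain the lowest injured joint lay above the highest contralateral joint, where the means were 1.53, 1.34 and 1.67. At 1-week the contralateral STR/ort joints had a ratio of 2.70 (2.39 to 3.17), above every other group of that time in its mean. At 2-weeks all 6 group means lay between 0.48 and 0.90, below the 15 group means of batch 1, the lowest of which was 1.12. Time and batch cannot be told apart in that step.

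**Figure D4:**
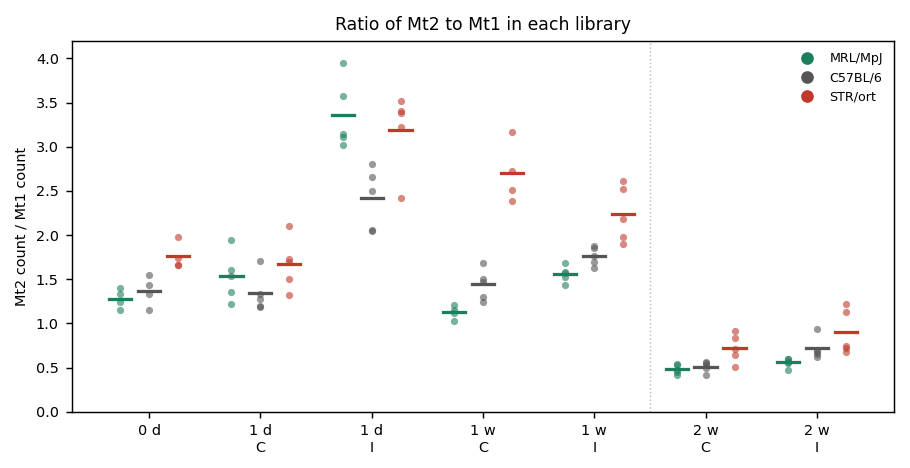
Count of Mt2 divided by the count of Mt1 (y axis, from 0) in each library, by time and joint (C, contralateral; I, injured); points are libraries, bars are group means and the dotted line marks the change of batch. The means of injured joints at 1-day are 3.36 in MRL/MpJ, 2.41 in C57BL/6 and 3.19 in STR/ort, and those at 2-weeks lie below 1.

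The agreement of left and right joints of 1 animal was measured where the labels name the animal, in the 15 pairs of 2-weeks. Each library's log2 CPM was taken as its deviation from the mean of its group, and the pairing of joints within each strain was permuted 100000 times (two-sided, 10 genes). The correlation was highest for Fkbp5 (r = 0.79, rho = 0.71), Tsc22d3 (r = 0.77, rho = 0.78), Mt1 (r = 0.74, rho = 0.76) and Pdk4 (r = 0.73, rho = 0.75). The permutation p values, not adjusted for the 10 relations computed, were 0.00534, 0.00424, 0.0273 and 0.00386 for r and 0.0165, 0.00386, 0.0104 and 0.00442 for rho. The deviations of both joints had the same sign in 12, 11, 12 and 12 of the 15 animals. Without the 2 animals farthest from the median, r was 0.54, 0.54, 0.73 and 0.58. Single animals weighed on these values: after adjustment for the 10 relations no gene's r passed without C57BL/6 animal 4, STR/ort animal 2 or STR/ort animal 4, and without the last r was 0.65 for Fkbp5, 0.76 for Tsc22d3 and 0.62 for Pdk4. Lcn2 had r = 0.52, rho = 0.56 (permutation p = 0.0430 for r and 0.0368 for rho) and Mt2 r = 0.58, rho = 0.53 (permutation p = 0.130 and 0.0816). Sgk1 (r = 0.11, rho = 0.33), Zbtb16 (r = 0.27, rho = 0.31), Cdkn1a (r = 0.29, rho = 0.26) and Saa3 (r = -0.09, rho = -0.01) had permutation p values for r from 0.374 to 0.799. Each animal was left out in turn, and MRL/MpJ animal 4 is named because its omission raised r most for Sgk1, Zbtb16 and Lcn2, a choice made after the data were seen. Without it, r was 0.66 (permutation p = 0.0592, adjusted for the 10 relations 0.0846) for Sgk1 and 0.63 (permutation p = 0.0320, adjusted 0.0533) for Zbtb16. For Lcn2 it was 0.77 (permutation p = 0.00524, adjusted 0.0131). The injured library of this animal had a fast muscle sum of 132725 CPM against 61329 to 74522 in the others of its group, and the part of muscle was not tested. Over all 17310 genes the median r was 0.0879, and 2.36% of genes had an r above 0.7.

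**Figure D5:**
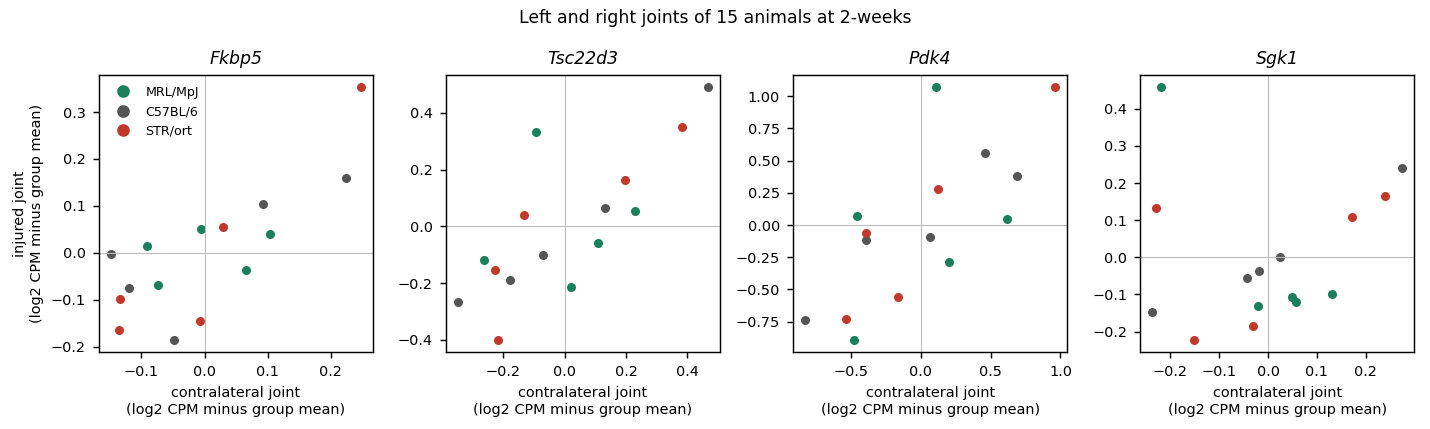
Deviation of the injured joint (y axis) against that of the contralateral joint (x axis) of the same animal at 2-weeks, in log2 CPM from the group mean, for Fkbp5, Tsc22d3, Pdk4 and Sgk1. Each point is 1 of 15 animals coloured by strain. The points of Fkbp5, Tsc22d3 and Pdk4 run from lower left to upper right (r = 0.79, 0.77 and 0.73). For Sgk1 r is 0.11 with all animals and 0.66 without MRL/MpJ animal 4, which was picked out after the data were seen.

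Within groups, the genes varied together in sets. Over the deviations of all 100 libraries from their group means, which share depth and tissue makeup and are given as a description, r was 0.89 (0.90 and 0.88) between Mt1 and Mt2, with the values of batch 1 and batch 2 in brackets, 0.73 (0.69 and 0.86) between Tsc22d3 and Sgk1, 0.54 (0.54 and 0.56) between Pdk4 and Sgk1 and 0.45 (0.39 and 0.61) between Tsc22d3 and Pdk4. Fkbp5 was less tied to Tsc22d3, with 0.25 (0.28 and 0.16). Lcn2 followed the summed marrow neutrophil granule markers with 0.90 (0.85 and 0.97), and Zbtb16 followed the summed fast muscle markers with 0.64 (0.69 and 0.47), as did Sgk1 with 0.60 (0.64 and 0.49). Across the 21 group means of log2 CPM, among 14416 genes of at least 1 CPM, the genes with a pattern most like Fkbp5 were Xbp1 (0.85), Pde8a (0.85) and Polr3e (0.83), by Pearson's r. For Tsc22d3 they were Per1 (0.92), Ptp4a1 (0.92) and Cebpb (0.88), for Zbtb16 Ppp1r3c (0.91), Timp4 (0.91) and Abcc5 (0.90) and for Pdk4 Ucp3 (0.89), Pik3ca (0.82) and Rbm41 (0.80). For Sgk1 they were Rpl27a (0.90), Ccdc85b (0.90) and Dnlz (0.89), and for Cdkn1a Auts2 (0.95), Tsc22d1 (0.94) and Armc5 (0.93). Mt1 was most like Mt2 (0.97), Ptx3 (0.94) and Havcr2 (0.94), and Mt2 like Mt1 (0.97), Mvp (0.96) and Plin2 (0.94). Saa3 was most like Ptx3 (0.96), Cyp7b1 (0.95) and Rab29 (0.95), and Lcn2 like Map3k15 (0.93), Camp (0.93) and Slc14a1 (0.91). The 21 means include both batches.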

How the data were processed

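RNA was measured in 100 whole knee joints. The authors extracted RNA from joints stored in RNA Later, prepared poly(A)-enriched TruSeq libraries, aligned reads to mm10 with TopHat2 (version 2.0.11) and counted reads per RefSeq gene with featureCounts. The deposited values are raw counts per gene and library, with no normalization by the authors, and how reads shared by close copies were counted is not given in the sources used here. Total counts were 6182016 to 20986027. Samples were grouped by the strain, time and joint of the labels into 21 groups of 4 or 5. Nothing in the labels ties 0-day, 1-day or 1-week libraries to named animals, so p-values there measure the spread between these joints, and joints of 1 mouse may stand on both sides of a comparison.

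Of 17313 rows, 3 repeated gene names were dropped, and 24 names that a spreadsheet had turned into dates or numbers were kept as rows. A gene was to be dropped unless 5 or more libraries held 2 or more counts of it, as in the study, and 0 genes were. All tests ran over 17310 genes in R 4.3.3 with edgeR 4.0.16 (TMM, glmQLFit, glmQLFTest), 1 fit per time (12, 30, 28 and 30 libraries) and 1 over the 70 libraries of batch 1 for changes in time, with Benjamini-Hochberg adjustment. DESeq2 1.42.0 was an alternative, as was RUVg on the 25 housekeeping genes by which the study normalised with RUVSeq, where the number of factors is not given in the sources used here. No 2 of the 190 library pairs within groups were identical.

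On simulated counts for injury in C57BL/6 at 1-day (17310 genes, 200 changed), 72 of 72 genes changed 2-fold and 62 of 62 changed 4-fold were called, and 33 of 66 changed 1.5-fold, the threshold itself, with 6 unchanged genes called. For STR/ort against C57BL/6 at 0-day these were 62 of 62, 51 of 51 and 41 of 87, with 4 unchanged genes called. The changed genes were drawn only from genes above a minimum mean count, so these shares do not cover a gene as scarce as Saa3.

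Same-numbered joints were compared by the correlation of their deviations from group means. At 2-weeks the labels name the animal, and r per pair was 0.133 to 0.215 in C57BL/6, 0.139 to 0.262 in STR/ort and -0.161 to 0.0755 in MRL/MpJ. In STR/ort at 1-week all 4 pairs exceeded 0.1 (0.102 to 0.231). Joints of different numbers were not compared, so these values cannot show that a number marks an animal at 1-day or 1-week. The fit without this block was the main one.

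The 10 genes, 8 companion lists and 13 marker lists were chosen with earlier results of these data known. Named companion genes were, for each list and injury comparison, the called gene of smallest adjusted p in each direction and those called in all 3 strains. Figures were drawn with matplotlib 3.10.9. Tests across batches were left out.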

Additional observations from a re-analysis of the deposited data

Results flagged for a closer look

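Of 210 checks of 1 gene in 1 group, 15 had a library far from the others by Dixon's test, where chance gives about 1 in 20. For the hormone-linked genes these were Zbtb16 at 51.0 CPM in injured MRL/MpJ joint 5 at 1-day, Pdk4 at 77.0 CPM in contralateral C57BL/6 joint 1 at 1-day, and Sgk1 at 117 CPM in injured STR/ort joint 5 at 1-day and at 155 CPM in injured MRL/MpJ joint 4 at 2-weeks. Mt1 was at 171 CPM in contralateral STR/ort joint 2 at 1-week, Mt2 at 48.9 CPM in contralateral MRL/MpJ joint 4 at 1-week, and Cdkn1a at 52.2 CPM in contralateral STR/ort joint 4 at 2-weeks. Saa3 held 6 of the 15, at 0.233 CPM in MRL/MpJ joint 2 and 4.46 CPM in STR/ort joint 1 at 0-day, at 0.102 CPM in contralateral MRL/MpJ joint 4, 1.29 CPM in injured C57BL/6 joint 5 and 10.1 CPM in contralateral STR/ort joint 1 at 1-week, and at 3.09 CPM in injured STR/ort joint 5 at 2-weeks. Lcn2 was at 702 CPM in injured MRL/MpJ joint 5 at 1-day and 736 CPM in injured MRL/MpJ joint 4 at 2-weeks, the same libraries as those of Zbtb16 and Sgk1.

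The change from 1-day to 1-week differed between strains (edgeR interaction, adjusted p below 0.05) in 12 tests on contralateral and 15 on injured joints, given as differences of log2 changes. In contralateral joints STR/ort exceeded MRL/MpJ by 1.78 in Fkbp5, 1.74 in Zbtb16, 1.18 in Mt1, 2.30 in Mt2 and 0.87 in Cdkn1a, and exceeded C57BL/6 by 1.42, 1.03, 1.59, 2.19 and 1.09 in these genes. The Pdk4 difference was -2.53 for STR/ort against C57BL/6 and 3.96 for C57BL/6 against MRL/MpJ. In injured joints the differences of STR/ort from MRL/MpJ were 1.41 in Fkbp5, 0.80 in Tsc22d3, 1.43 in Zbtb16, 1.19 in Mt1, 1.85 in Mt2, 0.82 in Cdkn1a and -0.49 in Lcn2, the last under the fold threshold. Against C57BL/6 they were 1.14 in Fkbp5, 0.69 in Zbtb16, -2.70 in Pdk4, 0.77 in Cdkn1a and -0.68 in Lcn2, and those of C57BL/6 from MRL/MpJ were 0.74 in Zbtb16, 3.80 in Pdk4 and 1.19 in Mt2. Single injured libraries ended 4 of these calls when left out, that of Mt2 among them. The Tsc22d3 call was lost without any 1 of MRL/MpJ 1-day library 5, STR/ort 1-day libraries 2, 3 and 5, MRL/MpJ 1-week libraries 1, 2 and 5 or STR/ort 1-week library 4 (down to 0.50, adjusted p up to 0.188), the Zbtb16 call of STR/ort against C57BL/6 without any 1 of STR/ort 1-day libraries 3 and 4, C57BL/6 1-week libraries 3 and 5 or STR/ort 1-week library 2 (down to 0.58, adjusted p up to 0.0823), and that of C57BL/6 against MRL/MpJ without any 1 of MRL/MpJ 1-day libraries 3, 4 and 5, C57BL/6 1-day libraries 1, 4 and 5, MRL/MpJ 1-week libraries 2, 4 and 5 or C57BL/6 1-week libraries 1, 2 and 4 (down to 0.61, adjusted p up to 0.112). The differences of STR/ort from C57BL/6 in Mt1 (0.64 ± 0.27, adjusted p = 0.0588) and Saa3 (1.63 ± 0.67, adjusted p = 0.0530) did not pass but lay near the threshold, since leaving out any 1 of 16 and 15 libraries of the 70 brought a call.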

How the results depend on the processing

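Of the 153 calls on the 10 genes, 94 were made under every alternative in which the gene was tested and with every single library left out, 103 under every alternative that keeps all libraries or leaves out the doubted pairs, again where tested, and 122 with each library left out. The alternatives were RLE size factors, housekeeping gene scaling, RUVg with 1 and 2 factors, DESeq2, edgeR's filterByExpr or no filter, a fit to the compared groups alone, the replicate block and, chosen after seeing the data, leaving out STR/ort libraries that stood apart. Housekeeping scaling moved the median of all genes by over 0.1 on the log2 scale in 8 comparisons (moves from -0.18 to 0.15), to which its log2 values are relative.

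For each change given here the cause was not tested. With RUVg, calls among the 30 tests at 0-day were 10 with 2 factors against 16, those of contralateral joints at 1-day against 0-day 1 with 1 factor and 1 with 2 against 5, those of contralateral strain pairs at 2-weeks 2 with 2 factors against 4, and the 1-week interactions 1 with 1 factor against 0. The Pdk4 difference of STR/ort from C57BL/6 in injured joints at 1-week turned from -1.19 to 0.18 and 0.21 with 1 and 2 factors. Zbtb16, not called there by the main test, turned from -0.19 to 0.73 and 1.07 in the same comparison, from -0.05 to 1.07 and 1.66 for STR/ort against MRL/MpJ in contralateral joints, and from -0.52 to 1.19 with 2 factors in injured ones. DESeq2 called 1 interaction at 1-week.

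With the replicate block, 2 injury interactions were called at 1-week and 1 at 2-weeks, against 0 and 0. The pairing rests on the animals named at 2-weeks only. In the 1-day and 1-week groups joints share only a number, so that the block results there are given as values. Among these are the 1-week interactions and the MRL/MpJ calls at 1-day of Pdk4 (gained, 0.90) and Saa3 (lost, 2.92). The block changed no other call than these and those in the report.

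Leaving out 1 library, calls ranged from 4 to 8 for injury at 1-week, 0 to 1 for its interaction, 1 to 6 for contralateral strain pairs at 2-weeks (1 without STR/ort contralateral library 4) and 13 to 16 at 0-day. Of the 387 tests of the 10 genes without a call, 34 gained one with at least 1 library left out. The genes whose left and right joints correlated with a permutation p below 0.05, adjusted for the 10 relations, were 3 for r and 4 for rho with all animals, and for r 0 to 4 with 1 left out, 0 without C57BL/6 animal 4, STR/ort animal 2 or STR/ort animal 4. Saa3 is limited by depth, with at most 3 counts a library in 6 of 21 groups, so no fold against these groups is given.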
